A study of Mus musculus with 12 samples.

Results

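The epidermal keratins described here are 10 genes taken by symbol from a count table of 23469 gene IDs, over 12 RNA-seq libraries of mouse skin. They comprise the basal keratins Krt5 and Krt14, the suprabasal keratins Krt1, Krt10, Krt2 and Krt77, and the stress keratins Krt6a, Krt6b, Krt16 and Krt17. All 10 were found in the table, and 9 of them were among the 15341 genes that passed the filter on low counts. Krt2 did not pass it. The libraries fall into 4 groups of 3: labelled-null ASP, labelled-null SAL, wild-type ASP and wild-type SAL. All mice are labelled as strain BALB/C. Backs were shaved on day 0, a gauze patch was on the skin from day 1 until day 4, and the patched skin was taken on day 5. For ASP the patch carried 200 µg of Aspergillus fumigatus extract (this mould is a common source of allergens), and the labels do not expand SAL. The protocol text gives the patch for ASP and does not describe the patch of the SAL groups.

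The mutant genotype is named in conflicting ways, as SCCA2KO in the titles, as Serpinb3a-transgenic in the genotype field and as Serpinb3a null in the study's design text. Serpinb3a, the protease inhibitor gene that the label refers to (mm10 chromosome 1, 107045587 to 107052303), was counted higher in those libraries, at 4.71 ± 3.04 CPM (counts scaled to a common library total) against 0.685 ± 0.409 CPM in wild type (SD, n = 6 each, two-sided exact permutation p = 0.00216). The counts behind these values ran from 18 to 76 in the labelled-null libraries and from 2 to 15 in wild-type ones. Labelled-null libraries had 2.31, 1.74 and 1.98 CPM under ASP and 6.39, 8.61 and 7.21 CPM under SAL. Which exons were altered is not stated, so the check does not settle the genotype. The mutant animals are therefore called labelled-null, and genotype directions follow that name. Nothing in the labels ties the 3 libraries of a group to different animals, and p-values therefore reflect only the spread among these samples, which may be technical.

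Keratins are the intermediate filament proteins of epithelial cells, and each filament is built from pairs of 1 type I and 1 type II protein. Dividing cells of the basal layer make the pair of the type II Krt5 and the type I Krt14. Cells that leave the basal layer to differentiate turn to the type II Krt1 and the type I Krt10, and Krt2 and Krt77 are further type II proteins of the differentiated layers. Krt6a and Krt6b (type II) and Krt16 and Krt17 (type I) are made in hair follicles and are known to appear in interfollicular epidermis after wounding, barrier damage or inflammation. The type II genes of the set lie on mouse chromosome 15 and the type I genes on chromosome 11, all on the minus strand.

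Sequence bears on how reads of this family can be assigned, because neighbouring copies share long stretches. Of the 50-base windows of the Krt6a transcript, 62.0% also occur in another gene's transcript, and 43.6% occur in Krt6b. The shares are 50.1% for Krt6b, 37.6% for Krt16, 14.4% for Krt14, 12.2% for Krt5, 3.99% for Krt17 and 2.44% for Krt10, while Krt1, Krt2 and Krt77 share none. The longest stretch of identical coding sequence between Krt6a and Krt6b is 280 bases, between Krt5 and Krt6a 140, and between Krt14 and Krt16 134. The largest partner of Krt16 was Gm11597 (382 windows, 25.2%), ahead of Krt14 (188 windows). Krt6a also shares 345 windows with Gm49428, and Krt6b 204 with Gm5478. How the authors' counting treated such reads is not given in the sources used here. The split of counts between Krt6a and Krt6b, and between Krt14 and Krt16, is therefore uncertain. The same holds between Krt6a, Krt6b or Krt16 and those Gm genes. The end of the stretch shared by Krt6a and Krt6b is shown here over 120 bases of exon 1, read 5′ to 3′ on the minus strand, from chr15:101693876-101693995 for Krt6a and chr15:101679851-101679970 for Krt6b (GENCODE M21 on GRCm38, which is mm10). Capitals mark the 3 bases at which Krt6b differs from Krt6a, all in the second part of the window.
Krt6a: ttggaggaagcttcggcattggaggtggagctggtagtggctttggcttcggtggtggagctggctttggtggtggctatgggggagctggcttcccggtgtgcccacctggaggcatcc
Krt6b: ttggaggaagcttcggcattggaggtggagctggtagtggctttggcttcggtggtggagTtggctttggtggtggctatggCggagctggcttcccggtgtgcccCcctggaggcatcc

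The type I members are compared over 71 bases of exon 6, which is the longest identical coding stretch between Krt14 and Krt17. The intervals are chr11:100204114-100204184 for Krt14, chr11:100257439-100257509 for Krt17, chr11:100246616-100246686 for Krt16 and chr11:99386534-99386604 for Krt10, all on the minus strand. Capitals mark bases that differ from Krt14. Krt17 has 0 such bases, Krt16 has 5, and Krt10, whose transcript is nearly free of shared windows, has 22 at its best ungapped match.
Krt14: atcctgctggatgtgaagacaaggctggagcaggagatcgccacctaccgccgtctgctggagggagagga
Krt17: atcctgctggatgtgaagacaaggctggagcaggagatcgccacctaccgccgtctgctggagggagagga
Krt16: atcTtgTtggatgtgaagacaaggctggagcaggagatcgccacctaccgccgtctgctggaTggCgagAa
Krt10: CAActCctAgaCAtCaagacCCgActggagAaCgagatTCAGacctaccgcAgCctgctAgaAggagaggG

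The skin held the keratins of a differentiating epidermis. To compare genes, levels were divided by transcript length and are given as CPM per kilobase. Krt10 had the highest level of the 10 in 12 of 12 libraries, with a median of 1796 CPM per kilobase (range 559 to 3017). Krt5 followed at a median of 735 and Krt77 at 558, and both steps were in that order in 12 of 12 libraries. The place below Krt10 fell to Krt5 in 9 libraries and to Krt1 in 3. Those 3 were labelled-null ASP replicates 2 and 3 and labelled-null SAL replicate 1. Krt1 had a median of 536 and was below Krt77 in 6 of 12 libraries, so these neighbours could not be ranked. Krt14 came next at 176 and Krt6a at 77.7, each in that order in 12 of 12 libraries. Krt17 had 53.2, Krt6b 30.3 and Krt16 20.4 CPM per kilobase, with the successive steps from Krt6a holding in 11, 10 and 11 of 12 libraries. Summed per kilobase, the suprabasal keratins made up 70.8 ± 5.99% of the keratin level, the basal ones 24.3 ± 4.91% and the stress ones 4.96 ± 1.59% (SD, n = 12). The stress share never exceeded 7.36% in any library. Of the 50-base windows, 62.0% of Krt6a, 50.1% of Krt6b and 37.6% of Krt16 occur in other genes, against 3.99% of Krt17. If reads fitting several genes were left out of the counts, the levels of Krt6a, Krt6b and Krt16 would be too low. Their ranks and the stress share carry that limit.

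**Figure D1:**
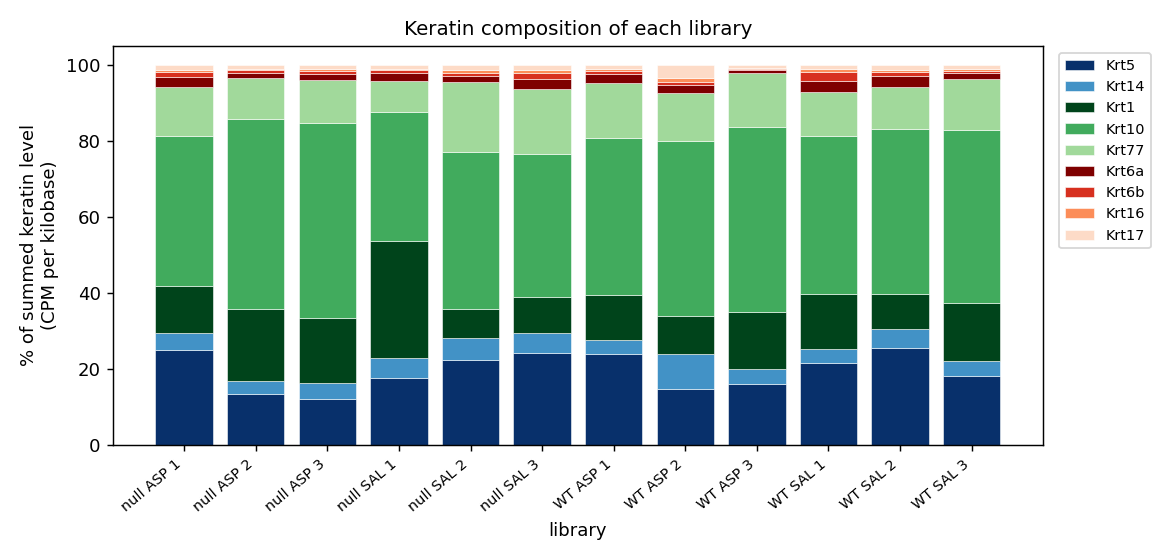
Share of each keratin in the summed keratin level of each library (vertical axis, % of CPM per kilobase), with libraries along the horizontal axis, "null" standing for labelled-null. Krt10 is the largest segment in all 12 libraries, and Krt1 takes 30.9% in labelled-null SAL replicate 1 against 7.59% to 19.1% in the other 11.

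Krt2 was close to absent from this back skin. It had 1, 1 and 9 counts in labelled-null ASP libraries, 0 in all 3 labelled-null SAL libraries, 0 in all 3 wild-type ASP libraries, and 0, 2 and 3 counts in wild-type SAL libraries. A count of 0 was read as allowing up to 3 counts (a one-sided limit), which is 0.262 to 0.479 CPM in the libraries that had 0. The two-sided exact Poisson 95% interval, which reaches 3.69 counts for a count of 0, ran from 4.12 to 17.1 counts for the library with 9 counts. Both cover counting error only. No test was made for Krt2.

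The 10 genes together held between 0.349% and 1.59% of a library's counts, with a median of 0.937%. Total counts ran from 6705396 to 12933436 per library. Urinary protein (Mup) genes, which are best known from liver and glands, took 8.43% to 39.0%, and the scaling used throughout (TMM) corrects for such composition, with factors from 0.647 to 1.28. The lowest keratin shares were those of labelled-null SAL replicate 1 (0.349%) and of replicate 3 of wild-type ASP (0.462%). They were also the libraries farthest from the rest with wild-type ASP replicate 2, with median Spearman correlations to the other libraries of 0.899 and 0.894, where the range over the 12 was 0.894 to 0.945. Defining markers of other tissue layers were present in every library. The summed level of 8 skeletal muscle markers ran from 5280 to 28420 CPM, that of 6 adipocyte markers from 463 to 1836 CPM and that of 7 sebaceous markers from 2575 to 7200.2 CPM. In such bulk skin, fewer cells of a type and less RNA per cell cannot be told apart.

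Krt5, the type II keratin of basal cells, had 2651, 1756 and 910.5 CPM in labelled-null ASP libraries and 634, 3039.9 and 2542 CPM in labelled-null SAL libraries. It had 2488, 609.9 and 843 CPM in wild-type ASP libraries and 2582, 1167 and 1475 CPM in wild-type SAL libraries. Every group held both a low and a high library, and the groups overlapped in all 4 comparisons. Krt14, its type I partner, had 385, 344 and 256 CPM in labelled-null ASP libraries and 144, 609.5 and 421 CPM in labelled-null SAL libraries. It had 303, 294 and 170.0 CPM in wild-type ASP libraries and 352, 180.4 and 239.8 CPM in wild-type SAL libraries. Its lowest and highest library thus lay in 1 group, labelled-null SAL. The ratio of Krt5 to Krt14 counts ran from 2.08 in wild-type ASP replicate 2 to 8.22 in wild-type ASP replicate 1, and the labelled-null libraries of both treatments lay within that range.

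Krt1, the type II keratin of the first differentiating cells, had 1480.0, 2823 and 1477 CPM in labelled-null ASP libraries and 1243, 1159.7 and 1114 CPM in labelled-null SAL libraries. It had 1398, 458 and 893 CPM in wild-type ASP libraries and 1946, 482 and 1387 CPM in wild-type SAL libraries. The labelled-null ASP libraries lay above all labelled-null SAL libraries and above all wild-type ASP libraries, while the wild-type ASP and SAL libraries overlapped. Krt10, its type I partner, had 4063, 6377 and 3774 CPM in labelled-null ASP libraries and 1181, 5465 and 3819 CPM in labelled-null SAL libraries. It had 4170.3, 1837 and 2493 CPM in wild-type ASP libraries and 4846, 1920.4 and 3567 CPM in wild-type SAL libraries. Unlike those of Krt1, its groups overlapped in every comparison. Krt77, a type II keratin of the differentiated layers, had 1816, 1883 and 1177 CPM in labelled-null ASP libraries and 394, 3357 and 2397 CPM in labelled-null SAL libraries. It had 2032, 697 and 1004 CPM in wild-type ASP libraries and 1861, 684 and 1454 CPM in wild-type SAL libraries. The labelled-null SAL group again held both its lowest and its highest library.

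Krt6a had 306, 214 and 121 CPM in labelled-null ASP libraries and 71.4, 231 and 299 CPM in labelled-null SAL libraries. It had 250.1, 86.1 and 49.0 CPM in wild-type ASP libraries and 383, 129.9 and 140.4 CPM in wild-type SAL libraries. Highest and lowest both lay in wild type, under SAL and ASP. Its close copy Krt6b had 131, 79.0 and 56.6 CPM in labelled-null ASP libraries and 29.2, 105 and 178 CPM in labelled-null SAL libraries. It had 94.5, 38.9 and 19.9 CPM in wild-type ASP libraries and 297, 56.0 and 45.0 CPM in wild-type SAL libraries. The 297 CPM belong to wild-type SAL replicate 1, and no other wild-type library exceeded 94.5 CPM. Krt16, the usual type I partner of the Krt6 proteins, had 38.6, 42.1 and 29.8 CPM in labelled-null ASP libraries and 12.3, 63.5 and 45.6 CPM in labelled-null SAL libraries. It had 33.2, 30.8 and 5.28 CPM in wild-type ASP libraries and 66.7, 14.9 and 23.5 CPM in wild-type SAL libraries. The 5.28 CPM of wild-type ASP replicate 3 rest on 40 counts. Krt17, a type I keratin of hair follicles and injured epidermis, had 110.5, 90.9 and 58.2 CPM in labelled-null ASP libraries and 24.1, 134 and 108 CPM in labelled-null SAL libraries. It had 79.6, 98.8 and 31.2 CPM in wild-type ASP libraries and 85.6, 44.3 and 68.8 CPM in wild-type SAL libraries. None of the 4 stress keratins had groups that did not overlap.

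**Figure D2:**
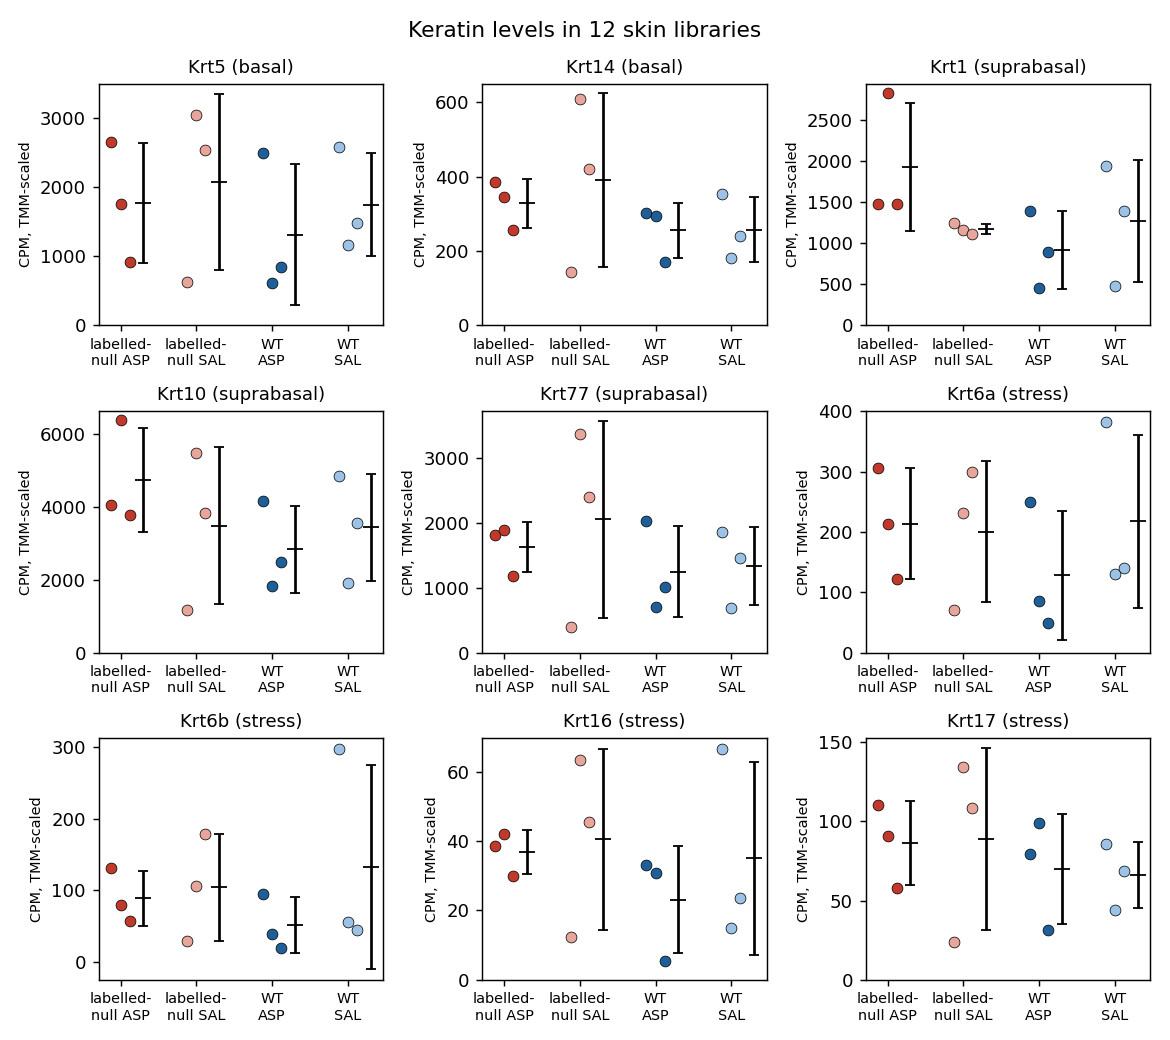
TMM-scaled CPM (vertical axis, linear) of the 9 tested keratins in each library by group (horizontal axis). Points are libraries, the bar and whiskers are the mean and SD of 3 libraries. Krt1 is the keratin whose labelled-null ASP points all lie above those of both labelled-null SAL and wild-type ASP, and the labelled-null SAL points of most others span nearly the whole range.

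The first comparison asks whether the ASP patch changed the keratins within a genotype. In labelled-null skin, Krt1 averaged 1927 ± 776 CPM under ASP and 1172 ± 65.4 CPM under SAL, and Krt10 averaged 4738 ± 1427 CPM under ASP and 3489 ± 2161 CPM under SAL (SD, n = 3 each). The fitted log2 fold changes were 0.72 (SE 0.50, 95% interval -0.33 to 1.77) for Krt1 and 0.44 (SE 0.54) for Krt10. Of the 9, 3 had a positive value, as had 48.8% of all genes. The other 7 tested keratins lay between -0.33 (Krt77) and 0.09 (Krt6a), with the basal Krt5 at -0.23 and Krt14 at -0.25. By the quasi-likelihood test of edgeR with Benjamini-Hochberg adjustment over all 15341 genes, 0 of 9 keratins passed an adjusted p of 0.05, 0 had an unadjusted p under 0.05, and the lowest unadjusted p was 0.167 (Krt1). DESeq2 and limma-voom called 0 of them as well. Over all genes 0% passed the adjusted threshold and 4.52% had an unadjusted p under 0.05. The 1 tested keratin without overlap between groups, Krt1, stands against 10.5% of all genes, so such a count is near the background. Without labelled-null ASP replicate 2 its log2 fold change was 0.34. That of Krt10 ran from 0.03 to 0.92 when 1 library was left out at a time.

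In wild-type skin the values of 8 of 9 keratins were lower under ASP, and none passed the test. Over all genes 51.5% were above 0. Krt6b averaged 51.1 ± 38.7 CPM under ASP and 133 ± 143 CPM under SAL, a log2 fold change of -1.37 (SE 0.72, 95% interval -2.89 to 0.14, edgeR adjusted p = 0.999). Krt6a gave -0.76 (SE 0.60), Krt16 -0.60 (SE 0.64), Krt1 -0.47, Krt5 -0.41, Krt10 -0.28, Krt77 -0.10, Krt14 -0.01 and Krt17 0.08. The median of the 9 was -0.41, beside 0.02 for all genes tested. By edgeR 0 of 9 had an adjusted p under 0.05 (0% of all genes) and 0 an unadjusted one under 0.05 (4.74% of all genes), again with 0 called by DESeq2 and limma-voom. No keratin had groups without overlap, against 6.79% of all genes. The Krt6 values moved with single libraries in both directions. Without wild-type SAL replicate 1 the log2 fold change of Krt6b was 0.02 and that of Krt6a -0.08, and without wild-type ASP replicate 1 they were -2.18 for Krt6b and -1.69 for Krt6a. Krt5 ran from -1.27 without wild-type ASP replicate 1 to -0.01 without wild-type SAL replicate 1.

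Wild-type SAL replicate 1 differed from the rest in hair keratins too. The summed level of the 9 keratins of the inner root sheath and companion layer, the sleeves around a growing hair, was 251 CPM there and 4.95 to 32.3 CPM in the other 11 libraries. Krt25 alone, an inner root sheath type I keratin, had 101 CPM in that library and at most 1.64 CPM elsewhere. The summed hair shaft keratins were at 60.5 CPM, against 0.0758 to 2.26 CPM in the other 11. The same library held the highest Krt6a, Krt6b and Krt16 and the highest level of skeletal muscle markers (28420 CPM), and the part of either in its stress keratins was not tested.

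The second comparison sets labelled-null against wild type. Under ASP all 9 tested keratins had higher fitted values in the labelled-null libraries. Krt1 had the largest difference with all libraries kept, averaging 1927 ± 776 CPM in labelled-null and 916 ± 471 CPM in wild-type libraries (SD, n = 3 each), a log2 fold change of 1.07 (SE 0.50, 95% interval 0.02 to 2.13). Next came Krt6b at 0.80 (SE 0.71), Krt10 at 0.74 (SE 0.54), Krt6a at 0.73 (SE 0.60) and Krt16 at 0.67 (SE 0.64). With 1 library left out at a time, Krt6b ran from 0.38 to 1.60, Krt10 from 0.47 to 1.14 and Krt6a from 0.35 to 1.67. Without wild-type ASP replicate 1 the order changed, with Krt6a at 1.67 and Krt6b at 1.60 above Krt1 at 1.52. The basal Krt5 had 0.43 and Krt14 0.36, with Krt77 at 0.39 and Krt17 at 0.31. The median of the 9 was 0.67, beside -0.04 for all genes tested, of which 46.6% were above 0. As the keratins vary together between libraries, these 9 values are not independent. Krt17 was at -0.04 when both low-keratin libraries named above were left out, and Krt5 at -0.0073 without labelled-null ASP replicate 1.

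None of these differences passed the test. By edgeR 0 of 9 keratins had an adjusted p under 0.05 (0% of all genes), and 1, Krt1, had an unadjusted p under 0.05, against 3.07% of all genes. The edgeR adjusted p of Krt1 was 0.999. DESeq2 and limma-voom called 0 keratins after adjustment. Krt1 was also the 1 tested keratin without overlap, which 7.62% of all genes showed. Its log2 fold change was 0.69 without labelled-null ASP replicate 2 and 1.52 without wild-type ASP replicate 1, and 12 of 18 other settings kept its unadjusted p under 0.05. The lowest adjusted p over those settings was 0.691.

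With SAL the genotype values had both signs, 6 of 9 above 0 where 51.3% of all genes were. Krt77 had a log2 fold change of 0.62 (SE 0.61), Krt14 0.60 (SE 0.44), Krt17 0.43, Krt5 0.25, Krt16 0.21 and Krt10 0.02, while Krt1 had -0.12, Krt6a -0.12 and Krt6b -0.35. Krt1 averaged 1172 ± 65.4 CPM in labelled-null SAL and 1271 ± 739 CPM in wild-type SAL libraries, with nearly equal means and a much narrower spread in the labelled-null group. Without TMM scaling its CPM were 1161, 750 and 978 in labelled-null SAL and 1696, 510 and 1676 in wild-type SAL libraries. The size of the labelled-null spread thus depends on the scaling. By edgeR 0 of 9 passed the adjusted threshold (0% of all genes), 0 had an unadjusted p under 0.05 (4.37% of all genes) and 0 were without overlap (8.06% of all genes). DESeq2 and limma-voom called 0 of the 9.

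**Figure D3:**
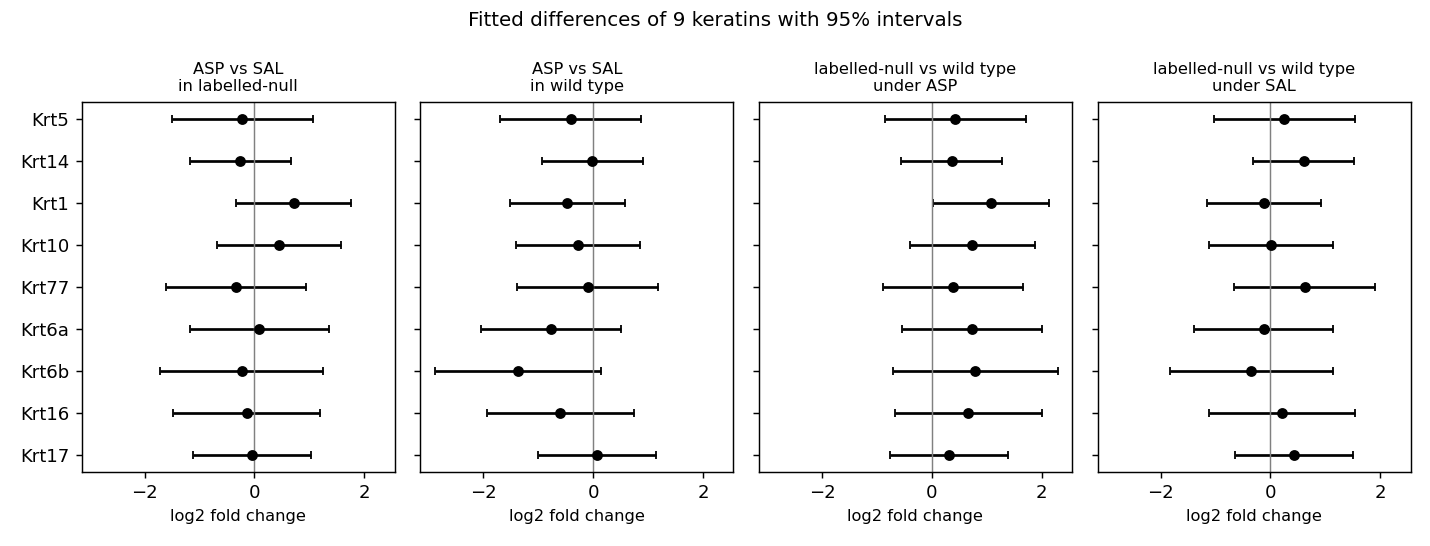
Log2 fold change (horizontal axis) of each keratin in the 4 comparisons, the first named group over the second, as points with 95% intervals from the edgeR fit. Only the interval of Krt1 for labelled-null against wild type under ASP (0.02 to 2.13) leaves out 0, before adjustment for the number of genes.

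The interaction asks whether ASP acted differently in the genotypes. For Krt1 the difference between the ASP effects was 1.19 on the log2 scale (SE 0.70, 95% interval -0.29 to 2.67, edgeR adjusted p = 0.998), made of 0.72 in labelled-null and -0.47 in wild-type skin. Krt6b had 1.14 (SE 1.00), Krt6a 0.85 (SE 0.85) and Krt10 0.72 (SE 0.76), and the remaining 5 lay between -0.24 (Krt14) and 0.46 (Krt16). In all 6 of 9 were above 0, against 46.7% of all genes. Leaving out wild-type SAL replicate 1, the Krt6b value was -0.25 and the Krt6a value 0.17, and leaving out wild-type ASP replicate 1 gave 1.94 for Krt6b and 1.79 for Krt6a. None of the 9 passed by edgeR (0% of all genes), none had an unadjusted p under 0.05 (3.81% of all genes), and DESeq2 and limma-voom called 0.

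The averaged comparisons set 6 libraries against 6. Labelled-null against wild type over both treatments gave positive values for all 9 keratins, from 0.22 (Krt6b) to 0.50 (Krt77, SE 0.43), with Krt14 at 0.48 (SE 0.31), Krt1 at 0.48 (SE 0.35) and Krt10 at 0.38 (SE 0.38). Over all genes 47.4% were above 0. Leaving out 1 library at a time, the Krt6b value ran from -0.09 to 0.92. ASP against SAL over both genotypes gave values from -0.80 (Krt6b, SE 0.50) to 0.12 (Krt1, SE 0.35), with 3 of 9 above 0 and 49.1% of all genes. In both, 0 of 9 passed by edgeR (of all genes 0.00652% and 0% passed with a higher value) and 0 had an unadjusted p under 0.05 (3.74% and 5.64% of all genes), while 0 were called by DESeq2 or limma-voom. A p that misses the threshold does not show that levels were equal. In simulated counts with the same libraries and genes, the test for ASP against SAL in labelled-null recovered 12% of genes changed 2-fold, 74% of those changed 4-fold and 98% of those changed 8-fold. The changes were made together, 50 genes at each of 2-, 4-, 8- and 16-fold, and 6 unchanged genes were called too. Many large changes make the adjusted threshold easier to pass, so these shares may be too high for a gene that changes alone.

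Levels of these genes varied widely between libraries, also within groups. The highest library exceeded the lowest by 4.23 times for Krt14, 4.98 times for Krt5, 5.40 times for Krt10, 5.57 times for Krt17, 6.17 times for Krt1, 7.82 times for Krt6a, 8.51 times for Krt77, 12.6 times for Krt16 and 14.9 times for Krt6b. Their coefficients of variation over the 12 libraries ran from 0.418 (Krt14) to 0.835 (Krt6b), beside a median of 0.306 for the 8432 genes with a mean of at least 10 CPM. The lowest value of Krt14, Krt10, Krt77 and Krt17 was in labelled-null SAL replicate 1, that of Krt6a, Krt6b and Krt16 in wild-type ASP replicate 3, and that of Krt5 and Krt1 in wild-type ASP replicate 2. Replicate 1 of labelled-null SAL and replicate 2 of wild-type ASP also had the highest summed adipocyte markers, 1732 and 1836 CPM against 463 to 1127 CPM in the other 10 libraries. Whether the amount of fat in the sample bears on the keratin level was not tested.

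The members varied together. Over the 12 libraries the Pearson correlations of log2(CPM + 0.5) among the 36 pairs had a median of 0.755, and 29 pairs had an adjusted permutation p under 0.05. The highest was that of the near copies Krt6a and Krt6b, with r = 0.963 and rho = 0.958 (permutation p = 1e-05, the smallest that 100000 permutations can give, and 3e-05, adjusted 0.00018 and 0.00054), and r = 0.938 without the 2 libraries farthest from the median of Krt6a. The part of their shared sequence in that value was not tested. Krt14 and Krt17 had r = 0.947 and rho = 0.937 (permutation p = 1e-05 and 5e-05, adjusted 0.00018 and 0.0006), and r = 0.942 without the 2 farthest. Krt10 and Krt77, which share no 50-base window, had r = 0.927 and rho = 0.874 (permutation p = 7e-05 and 0.00044, adjusted 0.00063 and 0.00198), and 0.833 without the 2 farthest. Removing group means left a median of 0.790 over the 36 pairs, and unscaled CPM gave 0.744. Over 12941 genes that are not keratins, the median r was 0.024 with Krt14, 0.020 with Krt10 and 0.019 with Krt6a. The share of pairs passing the same threshold among all genes was not computed.

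Krt1 was the exception among the 9. With its own partner Krt10 it had r = 0.682 and rho = 0.678 (permutation p = 0.0152 and 0.018, adjusted 0.0195 and 0.024), and r = 0.527 without the 2 libraries farthest from its median. The 7 pairs that missed an adjusted p of 0.05 were the pairs of Krt1 with the other 7 keratins, down to r = 0.207 with Krt17 (permutation p = 0.524, adjusted 0.524). The ratio of Krt1 to Krt10 counts was 0.364, 0.443 and 0.391 in labelled-null ASP libraries and 1.05, 0.212 and 0.292 in labelled-null SAL libraries. It was 0.335, 0.249 and 0.358 in wild-type ASP libraries and 0.401, 0.251 and 0.389 in wild-type SAL libraries. Labelled-null SAL replicate 1 alone had about as many Krt1 as Krt10 counts, and it had the lowest Krt10 of the 12 libraries but not the lowest Krt1.

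Ratios between stress keratins were steadier than their levels. Krt6b over Krt6a counts lay between 0.321 and 0.596 in 11 libraries and at 0.776 in wild-type SAL replicate 1. Krt16 over Krt17 counts were 0.349, 0.463 and 0.512 in labelled-null ASP libraries and 0.510, 0.472 and 0.422 in labelled-null SAL libraries. They were 0.417, 0.312 and 0.169 in wild-type ASP libraries and 0.780, 0.336 and 0.341 in wild-type SAL libraries, so that both extremes were wild type.

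**Figure D4:**
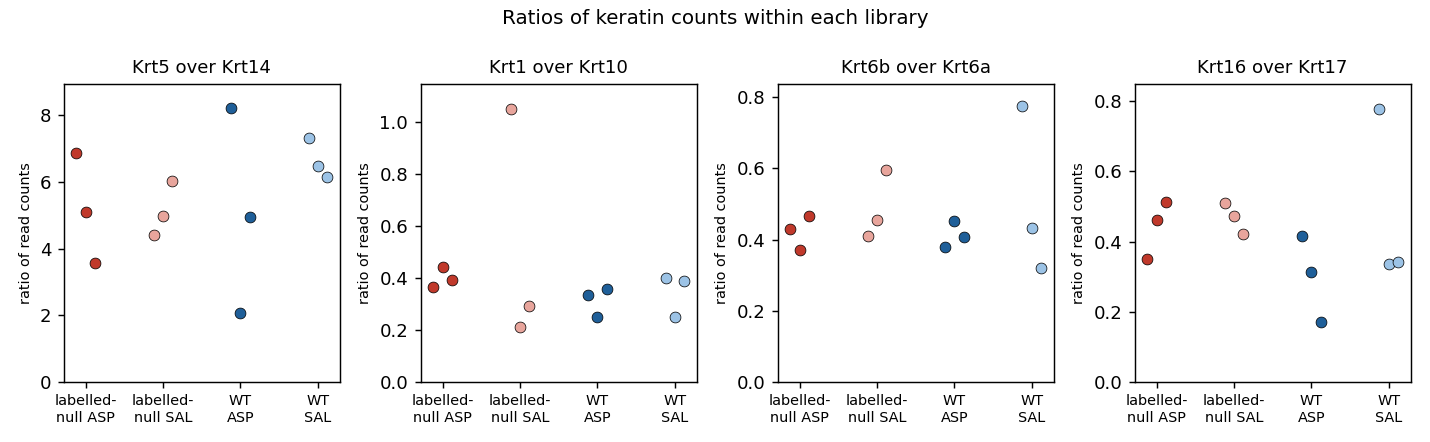
Ratios of read counts (vertical axes, no division by length) of 4 keratin pairs in each library, by group. Labelled-null SAL replicate 1 stands alone for Krt1 over Krt10 at 1.05, and wild-type SAL replicate 1 has the highest values of Krt6b over Krt6a (0.776) and Krt16 over Krt17 (0.780).

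**Figure D5:**
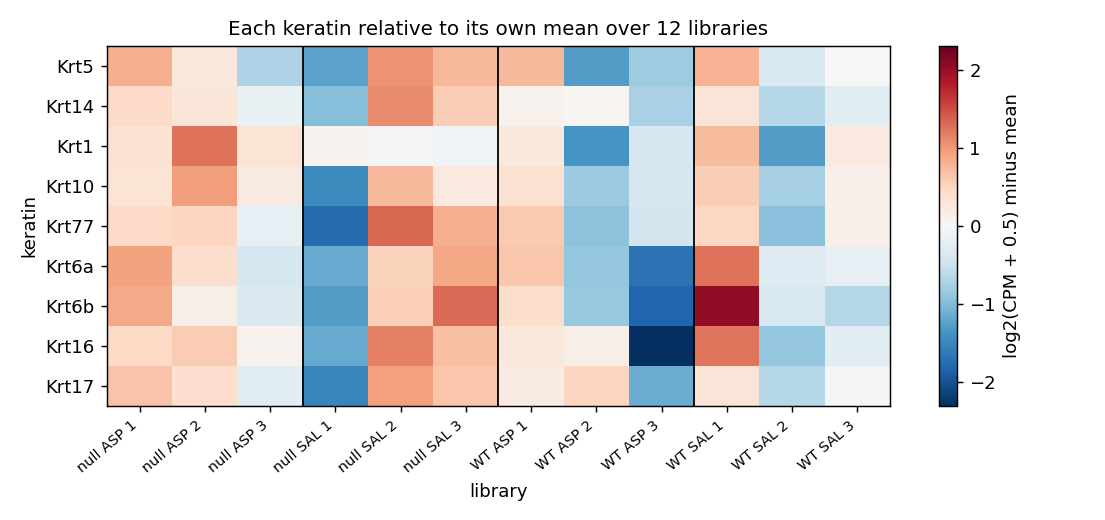
Log2(CPM + 0.5) of each keratin (vertical axis) minus its mean over the 12 libraries (horizontal axis, "null" standing for labelled-null), red above and blue below, with lines between groups. Columns are largely of 1 colour: labelled-null SAL replicate 1 is low for all but Krt1, and wild-type ASP replicate 3 is lowest for Krt6a, Krt6b and Krt16.

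Promoter sequence is given for 3 suprabasal members to set beside those levels, as Krt10 and Krt77 varied together and Krt2 was near 0. Of the 10 genes, 5 matched the RefSeq promoter table (GRCm38.p6). Each line holds the 250 bases before the start, 5′ to 3′ on the minus strand, from chr11:99389365-99389614 for Krt10, chr15:101869706-101869955 for Krt77 and chr15:101818170-101818419 for Krt2. Capitals mark matches to the TATA box TATAA and to TTGCNNAA, a C/EBP motif, searched on both strands.
Krt10: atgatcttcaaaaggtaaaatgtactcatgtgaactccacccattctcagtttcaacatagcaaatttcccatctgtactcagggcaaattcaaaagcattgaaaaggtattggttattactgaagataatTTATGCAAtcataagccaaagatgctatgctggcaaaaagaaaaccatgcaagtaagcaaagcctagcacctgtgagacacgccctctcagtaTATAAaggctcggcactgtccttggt
Krt77: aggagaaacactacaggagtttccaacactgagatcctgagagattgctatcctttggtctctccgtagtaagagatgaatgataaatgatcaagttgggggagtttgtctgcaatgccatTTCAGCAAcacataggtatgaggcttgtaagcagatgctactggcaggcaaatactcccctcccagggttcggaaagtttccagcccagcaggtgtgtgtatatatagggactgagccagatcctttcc
Krt2: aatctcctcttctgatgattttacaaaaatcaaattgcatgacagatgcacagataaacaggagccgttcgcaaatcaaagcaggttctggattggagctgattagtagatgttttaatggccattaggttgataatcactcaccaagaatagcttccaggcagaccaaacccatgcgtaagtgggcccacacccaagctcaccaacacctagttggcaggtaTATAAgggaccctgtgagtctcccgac
TATAA was found 26 bases before the start of Krt10 and 27 before that of Krt2, and 22.8% of 32851 promoters of this length hold it. TTGCNNAA was found 119 bases before the start of Krt10 and 129 before that of Krt77, and 9.56% of promoters hold it. The AP-1 motif TGANTCA (6.75% of promoters) and the AP-2 motif GCCNNNGGC (13.7%) matched none of the 3. The entries of Krt5 and Krt14, not printed here, matched none of these motifs, and that of Krt14 lies inside the gene. Both genes varied with the printed ones all the same. Krt5 had r = 0.804 with Krt10 and a higher r with Krt77, and Krt14 had r = 0.874 with Krt77. A shared motif was thus not needed for levels to vary together in these libraries. These are matches of letters only, and their part in the levels was not tested.

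Genes whose levels followed the keratins most closely were looked for among 12941 genes, leaving out keratins. With Krt14 these were Phf11a (r = 0.927, rho = 0.965), Asprv1 (r = 0.927, rho = 0.909), which encodes an epidermal protease that processes filaggrin, and Rbp2 (r = 0.905, rho = 0.881). With Krt10 these were Dsc3 (r = 0.953, rho = 0.972), which encodes a desmosomal cadherin, Daam1 (r = 0.931, rho = 0.804) and Thrap3 (r = 0.924, rho = 0.839). With Krt6a these were Fam210b (r = 0.963, rho = 0.881), Cbl (r = 0.939, rho = 0.944) and Incenp (r = 0.939, rho = 0.860). These values describe the 12 libraries and carry no test, as the highest of many correlations were taken.

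Other genes of the same layers were described by lists. Among 16 tested genes of suprabasal differentiation, 0 were called by edgeR in any comparison. Labelled-null against wild type gave positive values for 14 of 16 under ASP (median log2 fold change 0.34, all genes -0.04, of which 46.6% were above 0) and for 16 of 16 under SAL (median 0.37, all genes 0.01, of which 51.3% were above 0). How far these genes vary together between libraries was not measured, so the 16 values may not be independent. Under SAL, 1 of the 16, Cnfn, had an unadjusted edgeR p under 0.05 (log2 fold change 0.88, SE 0.37), against 4.37% of all genes. Under ASP, 2 of the 16 had an unadjusted edgeR p under 0.05, against 3.07% of all genes: Hrnr, a filaggrin-like protein of the granular layer, with 4388 CPM in labelled-null and 1966 CPM in wild-type libraries (log2 fold change 1.16, SE 0.45), and Calml3, a calmodulin-like protein, with 29.4 CPM in labelled-null and 14.0 CPM in wild-type libraries (1.06, SE 0.40). Krtdap, a secreted protein of differentiating keratinocytes, had a log2 fold change of 1.05 (SE 0.41) for ASP against SAL in wild type, where Krt1 and Krt10 had -0.47 and -0.28. The wild-type Krtdap values were 474, 1698 and 902 CPM under ASP and 486, 587 and 409 CPM under SAL, so the groups overlapped. Krtdap was the 1 gene of the list with an unadjusted edgeR p under 0.05 there, against 4.74% of all genes. In that comparison 7 of 16 had a positive value (median -0.05, all genes 0.02, of which 51.5% were above 0).

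The list of 11 basal and hemidesmosome genes, which anchor the basal layer, had 0 called and 0 with an unadjusted p under 0.05 in the edgeR comparisons of groups. Of all genes, 3.07% to 4.74% had such a p in these comparisons. Its medians were -0.05 and -0.20 for ASP against SAL in labelled-null and wild type, and 0.10 under ASP and 0.11 under SAL for labelled-null against wild type. Of 20 regulators of keratin genes, 0 were called. For labelled-null SAL against wild-type SAL libraries, 1 of 20 had an unadjusted edgeR p under 0.05, against 4.37% of all genes, so the count is near the background. It was Gli2, a transcription factor of Hedgehog signalling, at -1.18 (SE 0.51). In the other comparisons of groups 0 of 20 had such a p. The 12 proliferation genes had medians between -0.20 and 0.13 in the 4 comparisons of groups, with 0 called by edgeR. Up to 1 of the 12 had an unadjusted p under 0.05 in each direction, against 3.07% to 4.74% of all genes in either direction.

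The epidermal stress list (23 tested, 0 called by edgeR) is set beside the stress keratins in labelled-null skin. ASP against SAL gave a positive value for 4 of 23, with a median of -0.76 (all genes -0.01, of which 48.8% were above 0). Krt6a, Krt6b, Krt16 and Krt17 lay between -0.23 and 0.09. Of the 23, 3 had an unadjusted edgeR p under 0.05, all lower, against 4.52% of all genes in either direction. The smallest unadjusted p belonged to Stfa3, a stefin protease inhibitor, at 6.26 CPM under ASP and 44.3 CPM under SAL (-2.81, SE 0.97), Sprr2a1, a cornified envelope protein (-1.60, SE 0.68), and Sprr2d (-2.59, SE 1.10). The highest Stfa3 value of the 12 libraries was 111 CPM (median 6.11), which only the labelled-null SAL mean is large enough to hold. That mean thus rests largely on 1 library. No difference between the list and the keratins was tested. In wild type ASP against SAL gave a positive value for 11 of 23 (median -0.0035, all genes 0.02, of which 51.5% were above 0). Over all genes 4.74% had an unadjusted edgeR p under 0.05 in that comparison. The 1 gene with an unadjusted edgeR p under 0.05 there, Lcn2, a siderophore-binding protein of inflamed epithelia, had 0.596 CPM under ASP and 5.67 CPM under SAL (-3.13, SE 0.92). Labelled-null against wild type gave a positive value for 10 of 23 under ASP (median -0.11, 46.6% of all genes above 0). With SAL it was 20 of 23 (median 0.41, 51.3% of all genes above 0). Under ASP 3 had an unadjusted edgeR p under 0.05, against 3.07% of all genes: Lcn2 (3.28, SE 0.92), Hbegf (1.45, SE 0.59) and Sprr2a1 (-1.83, SE 0.68). With SAL 2 had one, against 4.37% of all genes: Stfa3 (3.90, SE 1.03) and Stfa2 (2.93, SE 1.11). Markers of other cells that the skin also holds are given beside the genotype values of the keratins. Sebaceous markers had positive values for labelled-null against wild type in 7 of 7 genes under ASP (median 0.60, all genes -0.04) and 7 of 7 under SAL (median 0.47, all genes 0.01). Of all genes 46.6% under ASP and 51.3% under SAL were above 0. By edgeR 0 were called, and 1 had an unadjusted p under 0.05 in each, against 3.07% and 4.37% of all genes. Adipocyte markers had positive values in 0 of 6 genes under ASP (median -0.68) and 5 of 6 under SAL (median 0.14), beside the same shares of all genes. Their summed level under ASP was 463, 528 and 737 CPM in labelled-null and 478, 1836 and 705 CPM in wild-type libraries. Under SAL it was 1732, 683 and 525 CPM in labelled-null and 624, 1127 and 798 CPM in wild-type libraries. Wild-type ASP replicate 2 and labelled-null SAL replicate 1 thus stood apart in their groups. Of the adipocyte markers 0 were called by edgeR and 1 had an unadjusted p under 0.05 in each treatment, against 3.07% and 4.37% of all genes. Under ASP that was Fabp4, a fatty acid carrier of fat cells, with 171 CPM in labelled-null and 458 CPM in wild-type libraries (log2 fold change -1.42, SE 0.64). The part of either in the keratin values was not tested.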

How the data were processed

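RNA of mouse skin was sequenced in 12 libraries. The authors' deposited table holds counts, whole reads per Entrez Gene ID without normalization. Of its 18 columns, 12 match the labels, and 6 others stayed out. According to the submitters' processing notes, the genome build was mm10, and the tools named there are TopHat, DESeq, bcl2fastq and CASAVA 1.8. No counting program, annotation or strand setting is given in the sources used here. Of the gene IDs, 97 had no symbol and held 7.57% to 15.8% of a library's counts.

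The main test was glmQLFTest in edgeR 4.0.16 (R 4.3.3), after filterByExpr and TMM scaling, with robust glmQLFit and 1 coefficient per group. Groups and replicate numbers came from the labels. The biological coefficient of variation was 0.427. Intervals come from the same fit. Alternatives were DESeq2 1.42.0, limma-voom (limma 3.58.1), other scalings and filters, the replicate block and left-out libraries. Correlations used log2(CPM + 0.5) and 100000 permutations. The fit was tested on simulated data. With 3 libraries against 3 an exact permutation test cannot go below p = 0.1. The named genes are the keratins of the set, up to 3 members of each list with the smallest p, and the 3 genes most correlated with Krt14, Krt10 and Krt6a. Krt25 and the sums of hair keratins by library were added after their values were seen. The keratins, lists and tests were chosen with earlier results of these data known. Sequences came from GENCODE M21 and RefSeq tables.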

Additional observations from a re-analysis of the deposited data

Results flagged for a closer look

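In all, 3 values stood apart in their group of 6 libraries, in that the gap to the nearest library took more than 0.625 of the whole range. Over the 38 groups of libraries checked, chance alone is expected to single out about 1 group in 20. Krt1 was at 2823 CPM in labelled-null ASP replicate 2, where the other 5 labelled-null libraries ran from 1114 to 1480.0 CPM (gap share 0.786). Krt6b was at 297 CPM in wild-type SAL replicate 1, where the other 5 wild-type libraries ran from 19.9 to 94.5 CPM (gap share 0.731). Krt16 was at 5.28 CPM in wild-type ASP replicate 3, where the other 5 ASP libraries ran from 29.8 to 42.1 CPM (gap share 0.667).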

How the results depend on the processing

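No keratin passed an adjusted p of 0.05 under any setting tried: over 1283 values the lowest adjusted p was 0.483 and the lowest unadjusted p 0.00942. Among settings that keep every library or drop both low-keratin ones, 717 log2 fold changes kept their sign and 26 turned, and the cause was not tested. With the replicate block, the sign turned to -0.22 for Krt6a (ASP against SAL in labelled-null), -0.028 for Krt17 (ASP against SAL in wild type), 0.27 for Krt6a and 0.36 for Krt6b (labelled-null against wild type with SAL), -0.043 for Krt17 (ASP against SAL over both genotypes). With limma-voom, the sign turned to -0.22 for Krt6a (ASP against SAL in labelled-null), 0.067 for Krt14 and 0.069 for Krt77 (ASP against SAL in wild type), 0.21 for Krt6a and 0.35 for Krt6b (labelled-null against wild type with SAL), -0.16 for Krt5 (the interaction), -0.032 for Krt17 (ASP against SAL over both genotypes). Without both low-keratin libraries (replicate 1 of labelled-null SAL, replicate 3 of wild-type ASP), the sign turned to -0.31 for Krt6a (ASP against SAL in labelled-null), 0.21 for Krt14 and 0.034 for Krt77 (ASP against SAL in wild type), -0.041 for Krt17 (labelled-null against wild type under ASP), 0.29 for Krt6a and 0.097 for Krt6b (labelled-null against wild type with SAL), -0.49 for Krt5 and -0.44 for Krt16 (the interaction), -0.084 for Krt10 and -0.031 for Krt17 (ASP against SAL over both genotypes). With Krt6a and Krt6b summed, the sign turned to -0.012 for Krt6a (ASP against SAL in labelled-null). With upper-quartile scaling, the sign turned to 0.015 for Krt17 (ASP against SAL in labelled-null), 0.039 for Krt14 (ASP against SAL in wild type). With only the libraries compared, the sign turned to 0.0055 for Krt14 (ASP against SAL in wild type).

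Leaving out 1 library at a time, 467 values kept their sign and 73 turned. For ASP against SAL in labelled-null, Krt5 ran from -0.65 to 0.15, Krt14 ran from -0.65 to 0.21, Krt77 ran from -0.82 to 0.21, Krt6a ran from -0.31 to 0.50, Krt6b ran from -0.67 to 0.40, Krt16 ran from -0.57 to 0.33 and Krt17 ran from -0.49 to 0.37. For ASP against SAL in wild type, Krt14 ran from -0.22 to 0.28, Krt10 ran from -0.68 to 0.043, Krt77 ran from -0.65 to 0.22, Krt6b ran from -2.18 to 0.017, Krt16 ran from -0.96 to 0.27 and Krt17 ran from -0.26 to 0.42. For labelled-null against wild type under ASP, Krt5 ran from -0.0073 to 1.29 and Krt17 ran from -0.039 to 0.64. For labelled-null against wild type with SAL, Krt5 ran from -0.12 to 0.68, Krt1 ran from -0.51 to 0.32, Krt10 ran from -0.45 to 0.43, Krt6a ran from -0.53 to 0.57, Krt6b ran from -0.98 to 1.05 and Krt16 ran from -0.26 to 1.08. For the interaction, Krt5 ran from -0.26 to 1.04, Krt14 ran from -0.64 to 0.21, Krt77 ran from -0.72 to 0.32, Krt6b ran from -0.25 to 1.94, Krt16 ran from -0.41 to 0.92 and Krt17 ran from -0.56 to 0.29. For ASP against SAL over both genotypes, Krt14 ran from -0.33 to 0.10, Krt1 ran from -0.099 to 0.34, Krt10 ran from -0.13 to 0.32, Krt77 ran from -0.49 to 0.060, Krt6a ran from -0.80 to 0.0077, Krt16 ran from -0.58 to 0.064 and Krt17 ran from -0.21 to 0.23. For labelled-null against wild type over both treatments, Krt6b ran from -0.091 to 0.92. The other values kept their sign but moved in size. The ranges were Krt1 0.34 to 0.88 and Krt10 0.030 to 0.92 for ASP against SAL in labelled-null. They were Krt5 -1.27 to -0.011, Krt1 -0.92 to -0.032 and Krt6a -1.69 to -0.076 for ASP against SAL in wild type. They were Krt14 0.14 to 0.52, Krt1 0.69 to 1.52, Krt10 0.47 to 1.14, Krt77 0.099 to 0.94, Krt6a 0.35 to 1.67, Krt6b 0.38 to 1.60 and Krt16 0.21 to 1.03 for labelled-null against wild type under ASP. They were Krt14 0.15 to 1.00, Krt77 0.077 to 1.11 and Krt17 0.014 to 0.87 for labelled-null against wild type with SAL. They were Krt1 0.75 to 1.64, Krt10 0.31 to 1.19 and Krt6a 0.17 to 1.79 for the interaction. They were Krt5 -0.75 to -0.12 and Krt6b -1.20 to -0.11 for ASP against SAL over both genotypes. They were Krt5 0.12 to 0.77, Krt14 0.25 to 0.68, Krt1 0.28 to 0.70, Krt10 0.14 to 0.59, Krt77 0.23 to 0.78, Krt6a 0.10 to 0.77, Krt16 0.20 to 0.87 and Krt17 0.16 to 0.59 for labelled-null against wild type over both treatments.

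Counts of genes called over the whole table moved too. DESeq2 called 2 lower genes for ASP against SAL in labelled-null, 1 higher and 1 lower in wild type, 2 higher and 3 lower for labelled-null against wild type under ASP, 6 higher under SAL, 1 lower for the interaction, and 6 higher and 2 lower for labelled-null against wild type over both treatments, where edgeR called 1 higher and otherwise 0. For that last comparison limma-voom called 2 higher and 1 lower, the fit without a filter 1 lower, the replicate block 0 higher, the fit without both low-keratin libraries 0 higher, and leaving out 1 library gave 0 to 2 higher. Without both low-keratin libraries 1 higher gene was called for ASP against SAL in wild type. No scaling moved the median of all genes by more than 0.1 on the log2 scale.

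Replicate numbers were shared between groups. Correlations of deviations from group means ran from -0.23 to 0.19 for same-numbered libraries, with 5 of 18 over 0.1. For libraries of other numbers they ran from -0.39 to 0.28. With 3 libraries per group these values cannot settle whether the numbers pair the samples, and the main fit used no pairing. With 3 libraries per group the simulated ASP comparison in labelled-null recovered 12% of 2-fold changes, and Krt2 had too few counts to be tested. The division of reads among Krt6a, Krt6b, Krt16 and Krt14 was not checked, as reads were not used here.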

Other observations

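Few keratins outside the set described above passed the filter on low counts: 1 of 5 simple epithelial keratins, 4 of 11 other stratified keratins, 2 of 9 keratins of the inner root sheath and companion layer and 1 of the 13 hair shaft keratins in the table (Krt32), with 0 called by edgeR. Krt27, of the inner root sheath, averaged 0.669 CPM under ASP and 14.8 CPM under SAL in wild type (log2 fold change -4.39, SE 1.22, edgeR adjusted p 0.999), and 42.2 CPM of wild-type SAL replicate 1 stood against at most 1.85 CPM in the other 11 libraries. The simple epithelial one was Krt19, found in hair follicle and gland cells. It had 1.58 CPM in labelled-null ASP, 7.29 CPM in labelled-null SAL, 0.297 CPM in wild-type ASP and 1.56 CPM in wild-type SAL libraries on average. Only the labelled-null SAL mean is large enough to hold the highest single value, 18.4 CPM (median of the 12 libraries 0.984). Krt19 thus had 1 library carrying most of that mean. Its log2 fold change was -2.22 (SE 0.74) for ASP against SAL over both genotypes and 2.24 (SE 0.74) for labelled-null against wild type over both treatments, with edgeR adjusted p-values of 0.864 and 1.000. Of the other stratified keratins, Krt79, a keratin of the upper hair follicle duct, averaged 193 CPM in labelled-null and 108 CPM in wild-type libraries (log2 fold change 0.83, SE 0.37, edgeR adjusted p 1.000), and Krt23 averaged 54.4 CPM under ASP and 39.1 CPM under SAL (0.47, SE 0.22, edgeR adjusted p 0.864).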
